A study of Mus musculus with 2 samples.

Results

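Ifitm1, Ifitm2, Ifitm3 and Ifitm10, 4 of the 32285 genes counted, encode interferon-induced transmembrane proteins or relatives of them. They were measured by single-cell RNA sequencing of lymph node immune cells in a library of wild type mice (WT) and a library of RPA1 conditional knockout mice (CKO), all C57BL/6. Rpa1 encodes the large subunit of replication protein A, the complex that protects exposed single DNA strands during replication and repair. Each genotype was represented by 1 library, and the labels name neither the driver of the deletion, the cells in which Rpa1 was deleted, the ages, nor the number of mice. The 4 genes were chosen by their CKO against WT values in these same libraries, so that contrast is a description without a test. A value is a count of unique molecular identifiers (UMIs, each tagging 1 captured transcript), or that count per 1000000 UMIs of all genes in the same cells (CPM). Intervals are 95% exact counting intervals (Poisson for CPM, Clopper-Pearson for shares of cells, conditional binomial for ratios), and they cover counting error only, not differences between animals. Those of CPM and of ratios also leave out the uneven spread of UMIs over cells. Where 0 was counted, the limit given with the word allows is 3 counts of the total.

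IFITM proteins sit in the plasma membrane and in endosomal membranes, where IFITM1, IFITM2 and IFITM3 hinder the fusion of enveloped viruses with the cell. Their genes are switched on by interferons through transcription factor complexes that hold STAT2 and IRF9 and bind interferon-stimulated response elements, and IFITM3 is also present in resting and activated lymphocytes, where it has been linked to receptor signalling at the B cell surface. IFITM10 is a more distant member whose role in immune cells is little known.

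On GRCm38 the first members lie together on chromosome 7. Ifitm2 spans 140954837 to 140955987 on the minus strand, Ifitm1 spans 140967221 to 140969825 on the plus strand and Ifitm3 spans 141009586 to 141010770 on the minus strand. Ifitm5 and Ifitm6 flank them, and the longer Ifitm10 lies apart at 142325837 to 142373753 on the minus strand. The predicted gene Gm45717 overlaps Ifitm2 and Gm49369 overlaps Ifitm10, each on the same strand, so the split of reads between them depends on the counting. Ifitm2 and Ifitm3 transcripts share an exact run of 69 bases and Ifitm1 and Ifitm3 share one of 64 bases. Over the last 300 bases of the transcripts, where 3′ tags fall, 197 bases are identical between Ifitm2 and Ifitm3.

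The stretch around the transcription start is shown for the 3 clustered members because the motif matches described below differ between them. The part of these letters in the CKO against WT values was not tested. Sequences come from RefSeq on GRCm38.p6 and run from 70 bases before to 30 bases after the RefSeq start. Capitals mark matches to an interferon response element-like motif (GAAANNGAAA) or a STAT dimer-like motif (TTCNNNGAA), both searched on both strands.
Ifitm3, chr7:141010715-141010814, minus strand: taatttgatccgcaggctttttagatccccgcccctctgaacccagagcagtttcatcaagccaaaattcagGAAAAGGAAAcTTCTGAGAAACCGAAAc
Ifitm2, chr7:140955932-140956031, minus strand: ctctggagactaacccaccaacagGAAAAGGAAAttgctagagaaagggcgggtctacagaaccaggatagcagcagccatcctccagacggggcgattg
Ifitm1, chr7:140968006-140968105, plus strand: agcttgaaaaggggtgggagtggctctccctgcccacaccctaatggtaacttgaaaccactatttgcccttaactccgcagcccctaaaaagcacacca

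Ifitm3 held 2 response element-like matches, at bases 3 to 12 and 20 to 29 after the start, with a STAT dimer-like match at bases 14 to 22 that overlaps the second of them. Ifitm2 held 1 response element-like match, from base -46 to base -37. Ifitm1 held no match of either kind in the 300 bases searched, and neither did the 3 Ifitm10 entries. The response element-like motif was found in 1131 of 32851 promoters of this length (3.44%) and the STAT dimer-like motif in 8.30%. Of the 23 listed interferon-stimulated genes for which a promoter was found, 12 (52.2%) held the response element-like motif, Isg15, Rsad2 and Ifit1 among them. Counted by gene in the same way, 1079 of 27025 genes (3.99%) held it. A match is a description of letters and does not show binding. The GENCODE starts of Ifitm2 and Ifitm3 lie 26 bases upstream of the RefSeq starts, and that of Ifitm1 lies 855 bases upstream.

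After filtering, 11169 WT and 11804 CKO cells were kept, with median depths of 5826 and 4422 UMIs. T cells (at least 2 UMIs of Cd3d, Cd3e and Cd3g together and none of Cd79a) numbered 7715 in WT and 3531 in CKO, B cells (at least 2 Cd79a UMIs, no Cd3e) 2754 and 7319, and NK cells (at least 1 Ncr1 UMI, no Cd3e) 81 and 236. T cells were split by Trdc, then Foxp3, then Cd4 or Cd8b1 alone, which left 1636 and 866 cells with neither or both co-receptors. The CD4 gate held 2803 and 1347 cells, the CD8 gate 2779 and 459, the Foxp3 gate 265 and 235 and the Trdc gate 232 and 624. The summed level of 7 B cell markers was at most 399.7 CPM in any T gate against at least 10651 CPM in the B gate, and the defining NK markers were highest in the NK gate (at least 15122 CPM). Between the libraries, 56 barcodes were shared, 45 of them kept. Rpa1 had 40.6 CPM in WT T cells against 26.3 CPM in CKO T cells, and 40.8 against 35.7 CPM in B cells. Since 3′ tags can lie outside the deleted part, these levels do not check the deletion.

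A small number of gated cells carried transcripts of another lineage, and they held a large part of the Ifitm2, Ifitm3 and Ifitm6 UMIs of some gates. In 37 WT and 23 CKO cells of the T gate, and in 15 and 30 cells of the B gate, at least 3 UMIs fell on 19 markers of monocytes, macrophages, neutrophils, dendritic and stromal cells. Those 37 WT cells, 0.480% of the gate, held 32.3% of its Ifitm3 UMIs, 67.3% of its Ifitm2 UMIs and 98.1% of its Ifitm6 UMIs. In CKO the 23 cells held 8.19%, 66.7% and 100% of them. Ifitm10 was little touched, with 2 of its 574 WT and 2 of its 231 CKO UMIs in those cells. Cells with at least 3 UMIs of the macrophage lysozyme gene Lyz2 and none of the T, B or NK gate genes, 16 in WT and 18 in CKO, stood at 2598 and 5593 CPM of Ifitm3. Values are therefore given for all gated cells and, as an alternative chosen after seeing the data, without the cells holding 3 or more of those marker UMIs.

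Ifitm3 was higher in CKO than in WT in every T cell gate, with ratios from 1.62 to 8.58. Over all T cells the WT level was 26.4 CPM (1391 UMIs; 25.0 to 27.8) and the CKO level 106 CPM (2357 UMIs; 102 to 110.2), which gave a CKO over WT ratio of 4.01 (3.75 to 4.29). Without the cells holding non-lymphoid marker UMIs the levels were 18.04 and 98.2 CPM, a ratio of 5.44 (5.04 to 5.88). With the mix of T cell gates held equal between the libraries, the levels were 30.4 and 102 CPM, a ratio of 3.36. Among 2810 genes that reached 50 CPM in WT or CKO T cells, 0.32% had a CKO over WT ratio of 2 or more, and Ifitm3 had rank 3 by its ratio, after Trdc and the granzyme gene Gzma. Since this contrast chose the gene, nothing is read from that rank.

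Within CD4 T cells the WT library had 28.4 CPM of Ifitm3 (510 UMIs) and the CKO library 110.03 CPM (895 UMIs), for a ratio of 3.88 (3.47 to 4.33), or 5.61 without the cells holding non-lymphoid marker UMIs. It had the highest ratio there of 2805 genes, of which 0.143% were at least 2-fold higher in CKO. CD8 T cells had the lowest level of the T gates in both libraries, 15.4 CPM (327 UMIs) against 52.2 CPM (167 UMIs), for a ratio of 3.39 (2.79 to 4.09), or 5.03 (4.08 to 6.17) without those cells. The background in the CD8 gate was 0.46%. In T cells with neither or both co-receptors the levels were 43.5 and 131 CPM, a ratio of 3.02 (2.67 to 3.42), or 4.48 without those cells.

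The highest ratio was that of cells with a transcript of Foxp3, the gene that defines regulatory T cells. Their Ifitm3 level was 24.1 CPM in WT (48 UMIs; 17.8 to 32.0) against 207 CPM in CKO (300 UMIs; 184 to 232), for a ratio of 8.58 (6.31 to 11.9). As gated, its counting interval lay above those of the CD4 and CD8 gates, but a difference between gates rests on 1 library per genotype and was not tested. Of 3114 genes in the Foxp3 gate, 0.642% were at least 2-fold higher in CKO, with Ifitm3 the highest of them. In this gate the marker cells held no Ifitm3 UMI in WT and 8.67% of them in CKO, and the ratio without them was 7.90. Leaving no cells out as doublets brought WT Ifitm3 to 118 UMIs in 295 cells, up to 46 in 1 cell, and the levels to 49.8 and 207 CPM. The log2 ratio was then 2.05 in the Foxp3 gate, close to the 1.99 of CD4 and 1.81 of CD8 cells under the same setting.

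Trdc encodes the constant part of the δ receptor chain, and cells with a Trdc transcript had the lowest ratio of the T gates. Their Ifitm3 level was 47.2 CPM in WT (74 UMIs) against 76.5 CPM in CKO (349 UMIs), for a ratio of 1.62 (1.26 to 2.11), which lay below the intervals of the other T gates. Without the cells holding non-lymphoid marker UMIs, 11 of them in CKO and 0 in WT, the levels were 47.2 and 61.2 CPM, and the interval of the ratio reached 1 (1.30, 0.999 to 1.70). A single WT cell with 28 UMIs held 37.8% of the WT count, and without the cell with most UMIs in each library the log2 ratio was 1.05, against 0.70 with it. In this gate 1.94% of genes were at least 2-fold higher in CKO, and Ifitm3, ranked 114 of 2989, was not one of them.

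B cells had the highest WT level among the gates, and a smaller ratio than most T gates. The WT library had 61.998 CPM of Ifitm3 (804 UMIs; 57.8 to 66.4) and the CKO library 128 CPM (4204 UMIs; 124 to 132), for a ratio of 2.07 (1.92 to 2.23), or 2.21 (2.04 to 2.40) without the cells holding non-lymphoid marker UMIs. Only 0.0682% of 2932 genes were at least 2-fold higher in CKO B cells, namely the aldehyde dehydrogenase gene Aldh7a1 and Ifitm3. NK cells held few Ifitm3 UMIs, 7 in WT and 66 in CKO, or 14.4 and 45.7 CPM (ratio 3.18, 1.46 to 8.22). All 7 of the WT UMIs and 59.1% of the CKO UMIs lay in cells with non-lymphoid marker UMIs, and without them 0 UMIs remained in 79 WT cells and 27 in 232 CKO cells. The background in the NK gate was 0.805%.

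Leaving aside the T cells with neither or both co-receptors, the WT gates were ordered B, Trdc, CD4, Foxp3, CD8 and NK from the highest Ifitm3 level to the lowest. The intervals of B and Trdc cells, of CD4 and Foxp3 cells and of CD8 and NK cells overlapped. In CKO the order was Foxp3, B, CD4, Trdc, CD8 and NK, and of neighbours in it only CD8 and NK cells had overlapping intervals. Without the cells holding non-lymphoid marker UMIs, WT Foxp3 cells (24.1 CPM) lay above CD4 cells (19.2 CPM). In CKO without them, the intervals of Trdc cells (54.1 to 68.9 CPM) and CD8 cells (44.7 to 60.9 CPM) overlapped. Those of CD8 and NK cells (12.6 to 27.9 CPM) then did not. The plot of levels by gate shows these positions for 3 members.

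**Figure D1:**
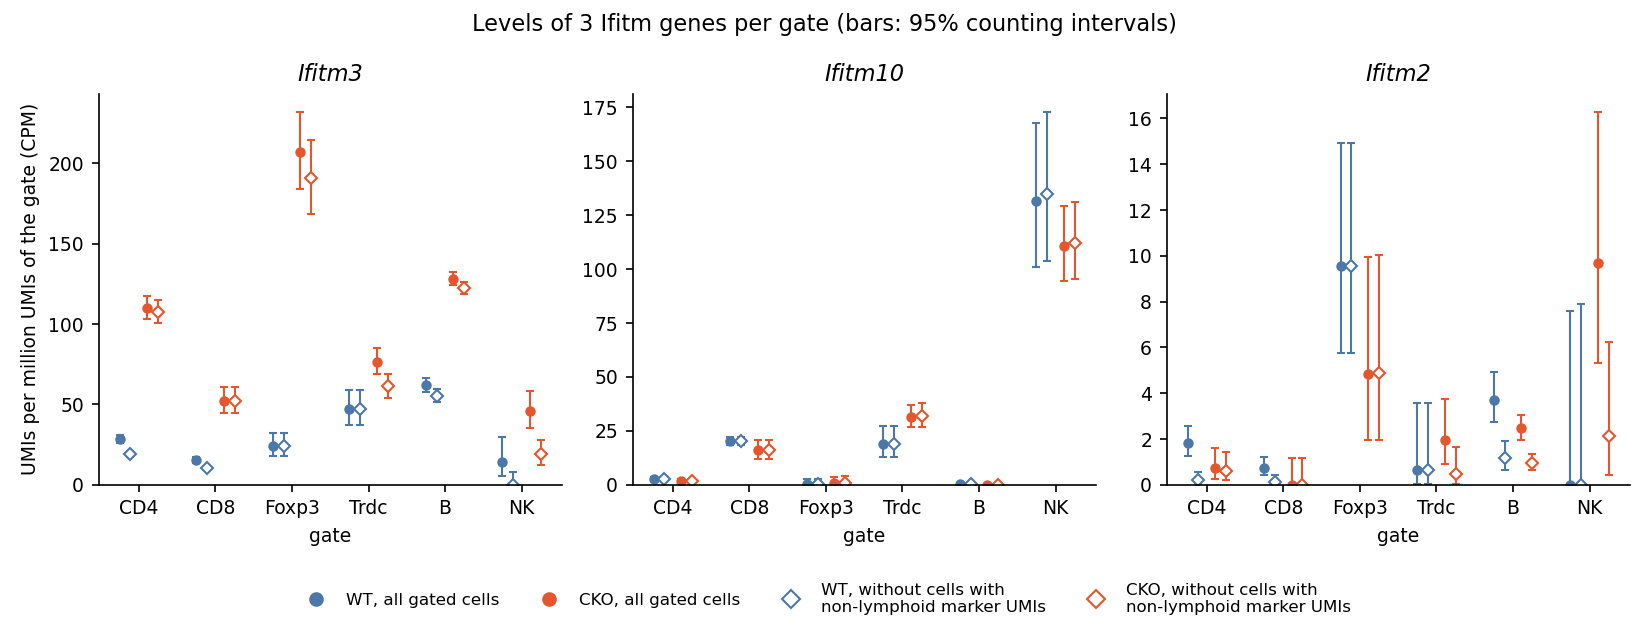
Level in CPM (vertical axis, linear and separate for each gene) of Ifitm3, Ifitm10 and Ifitm2 in 6 gates (horizontal axis) of the WT library (blue) and the CKO library (red). Filled circles are all gated cells, open diamonds leave out cells with 3 or more non-lymphoid marker UMIs, and bars are 95% counting intervals. Ifitm3 is highest in the CKO Foxp3 gate (207 CPM), Ifitm10 in NK cells of both libraries (131 and 111 CPM), and Ifitm2 stays below 10 CPM everywhere.

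A larger share of CKO than of WT cells had an Ifitm3 UMI in each of the T, B and NK gates. With every cell thinned to 2000 UMIs, a UMI was found in 2.34% of WT T cells (180 of 7679; 2.02 to 2.71%) and 11.5% of CKO T cells (404 of 3508; 10.5 to 12.6%). Without thinning, at median depths of 6302 and 5792 UMIs, the shares were 5.43% and 19.97%. The thinned shares were 2.58% and 12.6% in CD4, 1.37% and 6.35% in CD8, 4.17% and 17.2% in Foxp3 and 3.45% and 8.74% in Trdc cells. In B cells they were 6.47% and 12.3% (unthinned 10.1% and 18.3%, at median depths of 4037.5 and 3878 UMIs). NK cells set a low comparison: 0 of 81 WT cells, which allows a share of up to 3.70%, and 6 of 233 CKO cells (2.58%, 0.951 to 5.52%). Thinning left out 36 WT and 23 CKO T cells, 33 and 123 B cells and 0 and 3 NK cells as shallower.

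Most cells of every T, B and NK gate had no Ifitm3 UMI, so the counted UMIs lay in a minority of cells. At levels this low, a cell without a UMI is not shown to lack the transcript. Leaving out the cells with non-lymphoid marker UMIs and without thinning, positive T cells had a mean of 2.34 UMIs in WT (402 cells) and 3.11 in CKO (695 cells). Of these positive T cells, 58.7% in WT and 43.6% in CKO had a single UMI. Those with 10 or more UMIs numbered 8 in WT and 37 in CKO and held 13.2% and 23.9% of the UMIs. With the marker cells kept, the means were 3.32 and 3.34, and 18 WT and 42 CKO T cells had 10 or more UMIs. They held 40.3% of the WT UMIs and 29.7% of the CKO UMIs, the other way round. In Trdc cells with the marker cells kept, the mean was lower in CKO (4.93 in WT against 3.36). In the Foxp3 gate without the marker cells, no WT cell had 10 or more UMIs and 6 CKO cells did. Together these held 40.5% of the CKO Ifitm3 UMIs there, up to 42 in 1 cell. The share of Foxp3 cells with a UMI, in which each cell counts once, was 10.6% in WT (28 of 265) and 30.6% in CKO (71 of 232).

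**Figure D2:**
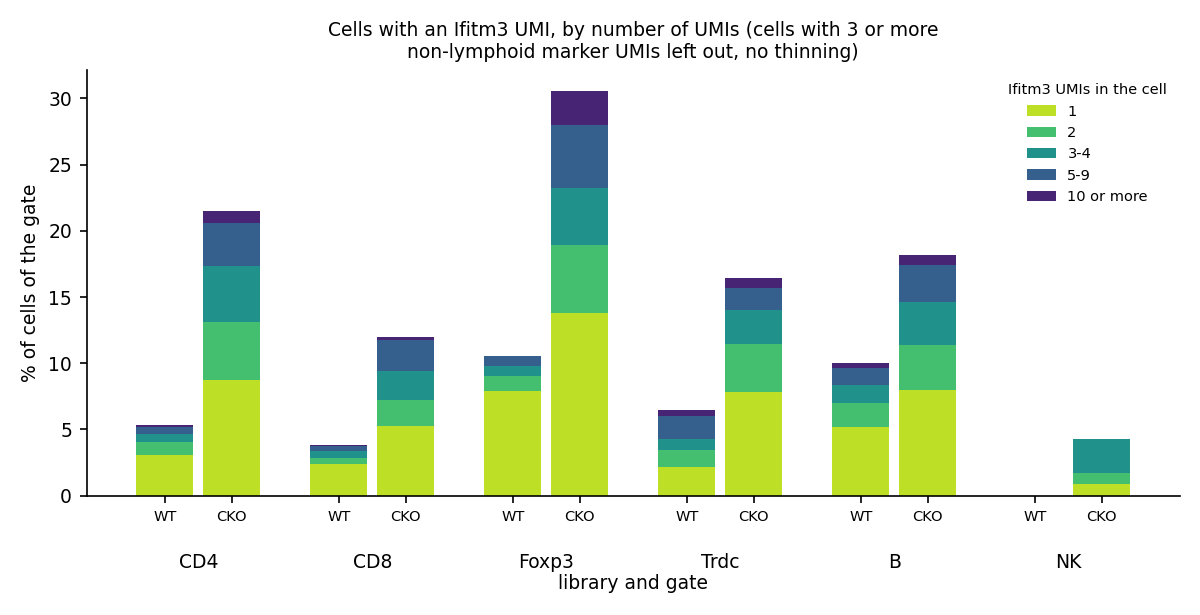
Share of cells (vertical axis, % of the gate) with an Ifitm3 UMI in 6 gates of the WT and CKO libraries (horizontal axis), stacked by the number of Ifitm3 UMIs in the cell, from 1 (light) to 10 or more (dark). Cells with 3 or more non-lymphoid marker UMIs are left out. The share is higher in CKO in each gate, at 21.5% against 5.31% in CD4 and 18.2% against 10.0% in B cells, and no WT NK cell has a UMI.

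Because Ifitm3 is an interferon-stimulated gene, its level was set beside that of other such genes in the same cells. Each cell thinned to 2000 UMIs was given a load, the summed UMIs of 10 interferon-stimulated genes, among them Isg15, Ifit1, Ifit3, Rsad2, Irf7, Usp18, Bst2, Rtp4 and Zbp1. A bin of this load is a range and not a cell type, and the cells with non-lymphoid marker UMIs were left out. Ifitm3 was higher at each higher load in both libraries and both gates. In WT T cells it went from 3.91 UMIs per 1000 cells at a load of 0 (6 UMIs, 1534 cells) to 13.6 at a load of 3 to 5 and 497 at a load of 21 or more (99 UMIs, 199 cells). In CKO T cells the same bins held 11.4 (7 UMIs, 612 cells), 84.3 and 1160 per 1000 cells (334 UMIs, 288 cells).

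At a like load CKO T cells had more Ifitm3 than WT T cells in each of the 6 bins. The ratio was 2.92 at a load of 0, where its interval reached below 1 (0.842 to 10.5), and 3.70, 6.19, 5.98, 3.07 and 2.33 in the bins above it. The mean load within each of these 6 bins differed little, at 26.6 in WT and 27.6 in CKO in the highest. The weighting below used wider bins. Its bin of 6 or more joins the bins of 6 to 10, 11 to 20 and 21 or more. Those held 971, 639 and 199 WT cells against 533, 528 and 288 CKO cells, so load was not equal within it. With the bins of 0, 1 to 2, 3 to 5 and 6 or more given the same weight in both libraries, the T cell levels were 44.9 and 185 UMIs per 1000 cells, a ratio of 4.13, against 6.06 without this weighting. All gated cells gave 3.59. The weighted ratio was 3.93 in CD4, 4.37 in CD8 and 5.51 in Foxp3 cells. In Foxp3 cells the ratio was 1.08 at a load of 0 and 0.895 at 1 to 2, with intervals that held 1. It was 3.12 (1.06 to 11.1) at 3 to 5, and the bin of 6 or more held 5 WT and 70 CKO UMIs. In CD8 cells each bin below 6 held 1 CKO UMI, with an interval that held 1.

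In B cells the ratio at a like load varied without order over the bins. It was 2.45 (1.37 to 4.70) at a load of 0, 1.48 (1.05 to 2.13) at 1 to 2 and 3.92 (2.54 to 6.36) at 3 to 5. At 6 to 10 it was 1.15 (0.922 to 1.45), at 11 to 20 it was 1.71 (1.34 to 2.22) and at 21 or more it was 0.871 (0.666 to 1.15), with 2577 UMIs per 1000 cells in WT (26 cells) and 2244 in CKO (131 cells). The weighted ratio was 1.55 in B cells, against 2.10 without weighting. In Trdc cells the weighting brought the ratio from 1.62 to 1.0003, a value that rests on 1 WT cell. That cell held 14 of the 21 thinned WT UMIs, and without the cell with most UMIs in each library the weighted ratio was 3.12 and the unweighted one 4.52 (2.10 to 11.6). B cells also carried more Ifitm3 than T cells of the same library at a like load. In WT at 6 to 10, 466 UMIs per 1000 B cells (378 to 569) stood against 33.0 per 1000 T cells (22.5 to 46.5).

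**Figure D3:**
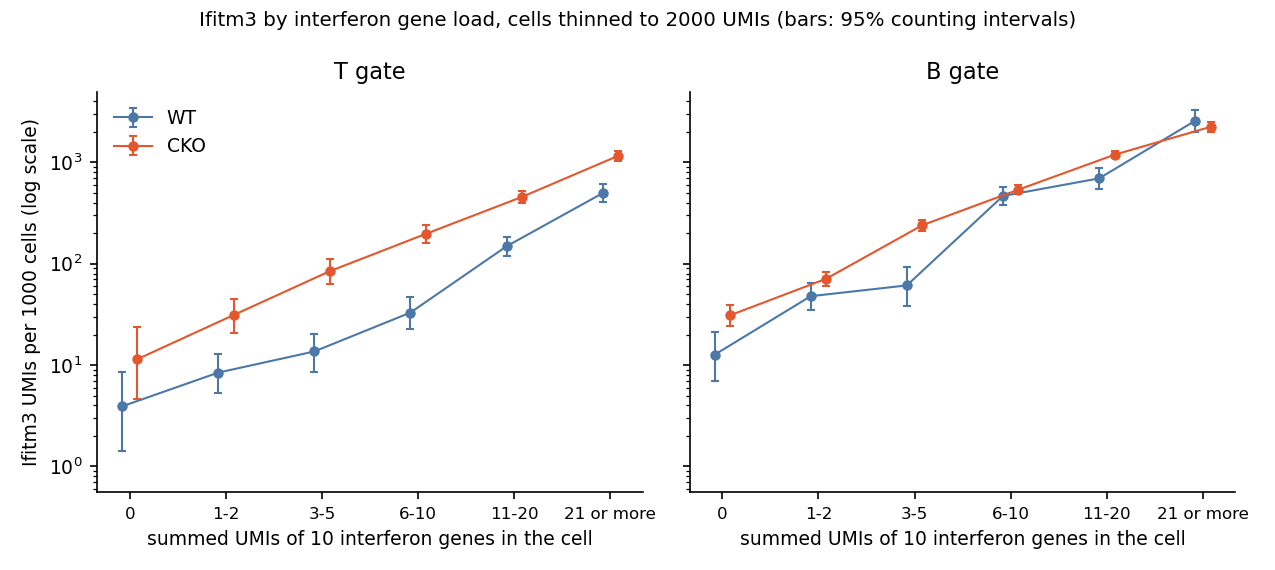
Ifitm3 UMIs per 1000 cells (vertical axis, log scale) against the summed UMIs of 10 interferon-stimulated genes in the cell (horizontal axis, 6 bins) for T and B gates of WT (blue) and CKO (red), cells thinned to 2000 UMIs, with 95% counting intervals. The CKO line lies above the WT line in all T cell bins, whereas in B cells the intervals overlap at 6 to 10 (466 and 538) and at 21 or more (2577 and 2244).

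Single genes of the load showed the same pattern in cells. Isg15 encodes a ubiquitin-like protein made in response to interferon. Of WT T cells with an Isg15 UMI, 5.73% also had an Ifitm3 UMI, against 0.771% of those without; in CKO the shares were 21.3% and 4.00%. In B cells they were 25.1% and 3.90% in WT and 33.5% and 7.68% in CKO. Read the other way, 75.0% of Ifitm3-positive WT T cells and 79.8% of CKO ones had an Isg15 UMI, but 46.2% and 48.4% of Ifitm3-positive B cells. Il7r, the interleukin-7 receptor gene of resting T cells, showed no such contrast, with Ifitm3 in 9.08% of CKO T cells that had an Il7r UMI and 12.04% of those that had none. A split of CD4 cells by S100a4, a gene of effector and memory cells, told little, since 99.3% of WT and 99.9% of CKO cells had no S100a4 UMI after thinning. In Trdc cells 15 of the 21 WT Ifitm3 UMIs lay in 11 cells with an S100a4 UMI, 14 of them in a single cell. The 58 CKO cells with an S100a4 UMI held 1 Ifitm3 UMI, for a ratio of 0.013 (0.0003 to 0.082). That ratio rests largely on the single WT cell. The cells without an S100a4 UMI had a ratio of 5.90 (2.61 to 16.5).

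The measured interferon-stimulated genes had CKO over WT ratios on the same side of 1 as Ifitm3 in T cells, each of them lower than that of Ifitm3. Of 32 listed, 29 had at least 20 CPM in T cells and all 29 had a counting interval above 1, against 45% of all 5482 genes at that floor (10.1% had one below 1). None of the 29 was at least 2-fold higher, against 0.511% of all genes, and their median log2 ratio was 0.59, against 0.08 over all genes. Those with the highest ratios were Rsad2 (56.1 and 110.1 CPM, ratio 1.96), an antiviral enzyme gene, and Isg15 (348 and 655 CPM, 1.88). Among the lowest was the transcription factor gene Irf9 (98.5 and 116 CPM, 1.18). No measured member of this list had a ratio above that of Ifitm3 in the T, CD4, CD8, Foxp3 or B gates, where the highest members were Rsad2 (1.96), Rsad2 (2.28), Oas1a (3.03), Isg15 (2.58) and Oas3 (1.91). In CD8 cells the Ifitm3 interval (2.79 to 4.09) held the Oas1a ratio. In Trdc cells 14 of 31 lay above Ifitm3, and in NK cells 2 of 30 did. Since this contrast chose Ifitm3 and the list was written with earlier results known, nothing is read from its place above the list.

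**Figure D4:**
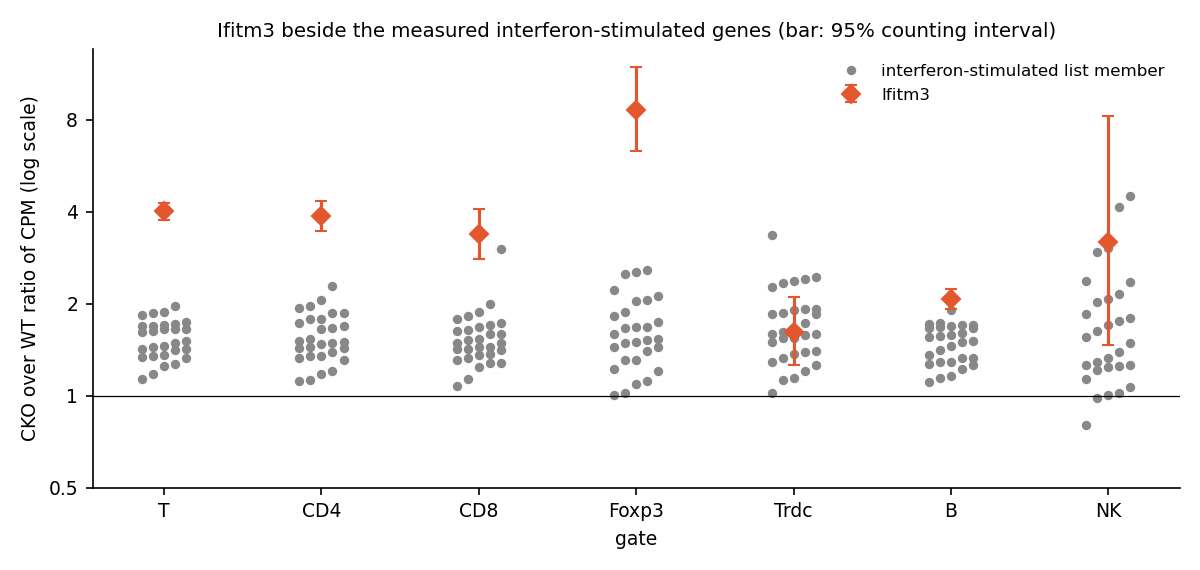
CKO over WT ratio of CPM (vertical axis, log scale) of Ifitm3 (red diamonds, with 95% counting intervals, all gated cells) and of each listed interferon-stimulated gene with at least 20 CPM (grey points) in 7 gates (horizontal axis). Ifitm3, which was chosen by this contrast, lies above all grey points in the T, CD4, CD8, Foxp3 and B gates. It lies among them in Trdc cells (1.62) and NK cells (3.18).

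Genes of other branches of the pathway followed. Of 15 genes that lean towards interferon gamma, 13 were measured in T cells and all 13 had intervals above 1, with a median log2 ratio of 0.31. Iigp1, an immunity-related GTPase gene, stood at 64.9 and 136 CPM (2.09) and Socs1, a feedback inhibitor of cytokine signalling, at 52.6 and 93.0 CPM (1.77), whereas the antigen-processing genes Psmb9 (1.06) and Tap1 (1.08) were lowest. Among receptors and signalling genes 7 of 10 measured had intervals above 1 and 0 below, beside the 45% and 10.1% of all genes. Some of these genes, Stat2 and Irf9 among them, are also on the interferon-stimulated list, so the counts of the lists overlap. Stat2, a transcription factor gene downstream of the type I receptor, stood at 31.1 and 51.4 CPM (1.65) and the receptor gene Ifngr2 at 1.31, while Jak1 (1.01, 0.990 to 1.03) and Ifnar2 (1.01, 0.947 to 1.08) had intervals that held 1. None of the 6 listed interferon genes reached 20 CPM in T cells. Interferon gamma itself, Ifng, was measured in Trdc cells, where its ratio was 4.098, and in NK cells, where it was 1.19.

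The gp130 pathway, a cytokine route through STAT3 that has been reported to induce Ifitm3, was represented by 4 of 7 genes in T cells. Socs3, its feedback inhibitor, stood at 33.6 and 54.8 CPM (1.63) and Stat3 at 78.4 and 94.1 CPM (1.20), whereas the signal transducer gene Il6st (0.939, 0.891 to 0.989) and the receptor gene Il6ra (0.959, 0.919 to 1.001) were lower or level. Of 12 genes of proteins known to bind, modify or work with IFITM proteins, 7 were measured, 3 with intervals above 1 and 1 below, shares near those of all genes. Cd81, a tetraspanin gene, stood at 14.3 and 30.8 CPM (2.16, 1.94 to 2.39) and the ubiquitin ligase gene Smurf2 at 55.0 and 70.6 CPM (1.28). Zdhhc20, a palmitoyltransferase gene, was level (0.994), and the tetraspanin gene Cd9 was lower in CKO, at 38.6 and 28.2 CPM (0.732). In B cells Cd81 had a ratio of 0.929, on the other side of 1.

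Over 12 profiles (CD4, CD8, Foxp3, Trdc, B and NK gates of both libraries), the genes whose log2 CPM most resembled that of Ifitm3 were Scaf4 (Pearson r of 0.930), Ubqln1 (0.872), Rnf170 (0.868), Cdk12 (0.862) and the interferon-inducible Ifi203 (0.858). These profiles share libraries and depth, and r is a description. Scaf4 varied from 28.7 to 46.2 CPM over them, a far narrower range than the 14.4 to 207 CPM of Ifitm3.

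Ifitm10 had a distribution of its own and no comparable difference between the libraries. NK cells had the highest level, 131 CPM (64 UMIs; 101 to 168) in WT against 111 CPM (160 UMIs; 94.3 to 129) in CKO, for a ratio of 0.844 (0.628 to 1.15). Thinned to 2000 UMIs, 18.5% of WT and 17.6% of CKO NK cells had a UMI, and unthinned 44.4% and 46.6%. CD8 cells stood at 20.2 CPM (429 UMIs) against 15.9 CPM (51 UMIs), for a ratio of 0.788 (0.578 to 1.06). Next after NK cells in WT came CD8 cells, with an interval that overlapped that of Trdc cells (19.1 CPM). In CKO it was Trdc cells (31.6 CPM), above CD8 cells. CD4 cells stood at 2.67 and 1.60 CPM, and the Foxp3 gate held 1 UMI in each library. In B cells 5 WT and 4 CKO UMIs were found (0.386 and 0.122 CPM), and a UMI in 0.182% and 0.0410% of cells without thinning, which serves as the background for this gene. The Lyz2 cells held 0 Ifitm10 UMIs.

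By summed UMIs, the interval of the Ifitm10 ratio left out 1 in Trdc cells, at 19.1 CPM (30 UMIs) in WT against 31.6 CPM (144 UMIs) in CKO, for a ratio of 1.65 (1.11 to 2.53). With gates drawn on thinned cells the levels were 31.2 and 30.5 CPM, and the log2 ratio turned to -0.033. The thinned shares of Trdc cells with a UMI, 2.59% (0.955 to 5.54%) and 5.34% (3.70 to 7.42%), had overlapping intervals. In CD4 cells a thinned UMI was found in 15 of 2791 WT cells and 1 of 1341 CKO cells, while the interval of the ratio of summed UMIs held 1 (0.598, 0.297 to 1.12). The 7 NK markers also differed in the Trdc gate, at a summed 612 CPM in WT and 1622 CPM in CKO, all 7 detected in both libraries. Their part in the Ifitm10 value of the Trdc gate was not tested. Over all T cells the Ifitm10 level was 10.9 CPM (574 UMIs) in WT against 10.4 CPM (231 UMIs) in CKO, for a ratio of 0.952 (0.814 to 1.11). Of T cells with Ifitm10, 77.9% in WT and 76.3% in CKO had exactly 1 UMI, and at most 5 were counted in any gated cell.

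The genes most like Ifitm10 over the same 12 profiles were the transcription factor gene Eomes (Pearson r of 0.990), the NK receptor gene Klrd1 (0.985), the chemokine gene Ccl5 (0.982), Padi2 (0.979), which encodes a peptidyl arginine deiminase, and Tagln2 (0.979). Eomes stood at 306 and 320.1 CPM in NK cells, at 51.6 and 34.4 CPM in CD8 cells and at 1.002 and 0.335 CPM in B cells. Thinned and without the cells holding non-lymphoid marker UMIs, 0 of 144 Ifitm10-positive WT cells and 1.85% of 54 CKO cells had an Ifitm3 UMI, against 2.24% and 11.5% of Ifitm10-negative cells. The 95% upper bounds of the positive cells' shares were 2.53% and 9.89%. Of the 54 CKO cells, 33 lay in the Trdc gate and 15 in the CD8 gate, where Ifitm3 shares were 8.57% and 6.36%, so the contrast mixes in the make-up of the T gate.

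Ifitm2 was low in lymphocytes and lay mostly in the cells with non-lymphoid marker UMIs. Over all T cells its level was 2.09 CPM (110 UMIs) in WT against 2.29 CPM (51 UMIs) in CKO, for a ratio of 1.097 (0.771 to 1.54). Without those cells 36 and 17 UMIs remained, or 0.689 and 0.771 CPM. B cells stood at 3.70 and 2.47 CPM (ratio 0.667, 0.461 to 0.975), and without those cells at 1.17 and 0.954 CPM. In CD4 cells the ratio was 0.402 (0.138 to 0.971) from 33 WT and 6 CKO UMIs, and without those cells 4 and 5 UMIs were left. NK cells held 0 UMIs in WT and 14 in CKO, of which 3 lay outside those cells. The Foxp3 gate had more of it: 19 UMIs in 11 of 265 WT cells (9.55 CPM) and 7 UMIs in 6 CKO cells (4.83 CPM), none of them in the cells with non-lymphoid marker UMIs, with a ratio of 0.506 whose interval held 1 (0.180 to 1.26). In that gate Ifitm2 was thus not higher in CKO, where Ifitm3 was. The Lyz2 cells stood at 596 CPM of Ifitm2 in WT and 750 CPM in CKO, far above any lymphocyte gate.

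Ifitm1 was barely detected. The T gate held 12 UMIs in WT, in 4 cells, 8 of them in a single CD8 cell, and 0 in CKO, which allows up to 0.135 CPM. B cells held 0 and 1 UMI, and NK cells 0 and 8. Of the other family members, Ifitm5 and Ifitm7 had no UMI in the T, B or NK gates, and Ifitm6 had 53 WT and 16 CKO UMIs in the T gate, of which 1 and 0 lay outside the cells with non-lymphoid marker UMIs. None of these 3 genes, listed as other members of the family, reached 20 CPM in a T, B or NK gate.

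Free RNA from other cells can add UMIs to a gated cell, so Ifitm3 was set beside Lyz2 of macrophages and Igkc of B cells. The Lyz2 cells held 0.186 Ifitm3 UMIs per Lyz2 UMI in WT and 0.279 in CKO. All gated T cells held 1.05 and 4.59 and all B cells 1.60 and 5.17, and without the cells holding non-lymphoid marker UMIs, which Lyz2 helped to choose, T cells held 33.6 and 83.2. B cells held 0.00383 Ifitm3 UMIs per UMI of the immunoglobulin gene Igkc in WT and 0.0126 in CKO, against 0.979 and 2.25 in T cells. The Igkc level of T cells was 26.97 CPM in WT against 47.02 CPM in CKO. Other sets had other ratios. Cells with a UMI of the dendritic cell gene Flt3, which can include Lyz2 cells, held 0.284 and 1.19 Ifitm3 UMIs per Lyz2 UMI. Cells with a UMI of Siglech had no Lyz2 UMI. The part of free RNA in the Ifitm3 values was not tested.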

How the data were processed

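Single cells were captured in droplets and transcript 3′ ends were counted with UMIs, per the labels' protocols. The deposited values are whole-number UMI counts per gene and barcode, without normalization, and the authors made them with Cell Ranger 6.0.2, per the file headers. The submitters' processing notes name mm10 as build, with Seurat 4.0.3 and Cell Ranger 5.0.0 as tools. Gene positions come from GENCODE M21 (32158 of 32285 identifiers found). The WT library held 12769 barcodes and 84813609 UMIs, the CKO library 13754 and 76200586.

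Barcodes under 500 UMIs, under 200 genes or over 10% mitochondrial UMIs (306 in WT and 437 in CKO for the last) were dropped. The highest Scrublet scorers (Scanpy 1.11.5) were left out as doublets at 0.8% per 1000 barcodes, 1304 in WT and 1513 in CKO. Gates used raw UMIs, and UMIs were summed per gate and library. With 1 library per genotype no test was made. Intervals used scipy 1.17.1 on Python 3.11.15. Ratios and intervals were tested on simulated gate totals drawn from the Poisson model that the intervals assume. That test could not check the effect of UMIs lying unevenly over cells. The members and the gene lists were chosen with earlier results of these data known. The 2 highest and 2 lowest ratios of each list in T cells were named, except for an item not reported here, along with the 5 genes most like each member with at least 20 CPM in a profile (log2 of CPM plus 1). Highest members of other gates, and Ifng, were named after their values were seen. Alternatives changed the mitochondrial limit, doublets, totals, weighting, gates, thinning, CPM floors and the genes of the interferon load.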

Additional observations from a re-analysis of the deposited data

Results flagged for a closer look

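Ifitm3 differed in the opposite direction in 2 small sets of cells that had no UMI of the T, B or NK gate genes. The Flt3 set below can share cells with the Siglech set and with the Lyz2 cells, so the sets are not separate. In cells with a UMI of Siglech, a receptor gene of plasmacytoid dendritic cells, the WT level was 616 CPM (64 UMIs, 10 cells) and the CKO level 107 CPM (12 UMIs, 14 cells), a log2 CKO over WT ratio of -2.52. In cells with a UMI of Flt3, a receptor gene of dendritic cells and their progenitors, the levels were 814 CPM (214 UMIs, 23 cells) and 155 CPM (37 UMIs, 27 cells), a log2 ratio of -2.40. The macrophage gene Lyz2 differed in the same direction in the Flt3 cells, at 2864 and 130 CPM, and its part in the result was not tested; in the Siglech cells it had 0 UMIs in both libraries. In CD4, CD8, Foxp3, Trdc, B, NK and Lyz2 cells the ratio was above 1. The difference between these sets and the others was not tested.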

How the results depend on the processing

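The log2 CKO over WT ratio of Ifitm3 kept its sign in 76 of 76 values under other settings, that of Ifitm10 in 74 of 77 and that of Ifitm2 in 48 of 54. For T cells the Ifitm3 value was 2.003 as reported, 2.25 with each cell weighted equally, 2.22 with gates on thinned cells, 1.75 with equal gate make-up and 2.44 without cells holding non-lymphoid marker UMIs. For CD4 cells (1.95 as reported) it was 2.30 with equal cell weights, 2.49 without the marker cells and 2.21 without the cell with most UMIs of the gene in each library, and for CD8 cells (1.76) these settings gave 2.12, 2.33 and 2.09, and gates on thinned cells 2.21. For Foxp3 cells 3.101 became 2.05 with no cells left out as doublets, and for Trdc cells 0.70 became 0.10 with gates on thinned cells. Where the reported interval left out 1, signs reversed for Ifitm10 in Trdc cells with gates on thinned cells (0.72 to -0.033), for Ifitm2 in CD4 cells without the marker cells (-1.32 to 1.46) and for Ifitm2 in B cells without the cell with most UMIs (-0.58 to 0.17). The other 6 sign changes, in Ifitm2 of T and Trdc cells and Ifitm10 of Foxp3 and B cells, were of ratios whose interval held 1. The ratio of T cell shares with an Ifitm3 UMI was 4.91 thinned and 3.68 without thinning. The ratio weighted over load bins in T cells was 3.59 over all gated cells, and 3.22 with 5 interferon genes in the load. In Trdc cells the weighted ratio was 1.0003, and 3.12 without the cell with most UMIs. Genes at least 2-fold higher in CKO T cells numbered 9, and 28 with a floor of 20 CPM. Causes were not tested. The settings without marker cells, without shared barcodes and without the cell with most UMIs, the finer load bins and the other settings for Ifitm10 were added after seeing the data. No paired analysis was possible because each genotype has 1 library, so replicates could not be left out either, and genotype cannot be told apart from mouse, capture or library.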
